A study of Homo sapiens with 6 samples.

Results

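The genes described here are the nuclear-encoded subunits of the mitochondrial respiratory chain and of ATP synthase. They were chosen by gene symbol, with earlier results of these data known. The symbols were the NDUFA, NDUFB, NDUFC, NDUFS and NDUFV genes (complex I), SDHA to SDHD (complex II), the UQCR genes and CYC1 (complex III), the COX4 to COX8 genes (complex IV) and the ATP5 genes (complex V). The rule took 87 of the 27672 genes measured, namely 38 of complex I, 4 of complex II, 10 of complex III, 17 of complex IV and 18 of complex V, and UQCRBP1 was dropped as a pseudogene name. Symbols are older names for some of these genes, so that ATP5H is now ATP5PD and ATP5G3 is now ATP5MC3. NDUFA4 and its paralogue NDUFA4L2 were counted with complex I by symbol, although the NDUFA4 protein is known as a subunit of complex IV. A further 3 genes that the symbols bring in are not counted as subunits (ATP5S, ATP5SL and COX7A2L). They stay among the members in the counts below.

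RNA-seq of polyadenylated RNA was carried out on undifferentiated human embryonic stem cells (hESCs, day 0) and on neuromesodermal progenitor-like cells made from them (NMP-L, day 3), with 3 libraries in each group. All libraries came from H9, an established hESC line, so that both groups stand for 1 genetic background, and the labels call them biological replicates without saying whether they were separate cultures, so p-values measure the spread between these libraries. Per the labels, hESCs were grown without feeders on fibronectin in DEF medium with Noggin at 10 ng/ml and bFGF at 30 ng/ml, whereas NMP-L cells had 3 days of Neurobasal or N2/B27 basal medium with the GSK3 inhibitor CHIR99021 at 3 µM and bFGF at 20 ng/ml. The methods of the study name another medium and matrix for hESCs and add further inhibitors during differentiation, so the medium, the agents and the cell state change together and cannot be told apart.

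The respiratory chain passes electrons from NADH (complex I) and succinate (complex II) through ubiquinone to complex III, from there by cytochrome c to complex IV, and finally to oxygen. Complexes I, III and IV move protons across the inner mitochondrial membrane, and complex V, the ATP synthase, uses that gradient to make ATP. Most subunits are encoded in the nucleus and imported, while a small core is encoded in mitochondrial DNA (not analysed here), and pluripotent stem cells are known for drawing much of their ATP from glycolysis.

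Many promoters of these genes are known to carry sites for NRF1, for ETS factors such as GABPA, and for YY1. Promoter sequences from RefSeq (GRCh38.p14, 250 bases before to 50 bases after each start) matched 67 of the 87 genes. The following 5 are shown since 4 belong to the largest rises with an entry (ATP5H, SDHD, NDUFB3 and NDUFA9) and 1 to the largest fall of an abundant member (COX7C). Capitals mark matches, on either strand, to GCATGCGC (NRF1), CCGGAAG (ETS) or AAGATGGC (YY1), and a match is a description of letters, not evidence of binding. The sequences are at chr17:75046920-75047219 (minus strand, ATP5H), chr11:112086623-112086922 (plus strand, SDHD), chr2:201071751-201072050 (plus strand, NDUFB3), chr12:4648864-4649163 (plus strand, NDUFA9) and chr5:86617691-86617990 (plus strand, COX7C).
ATP5H: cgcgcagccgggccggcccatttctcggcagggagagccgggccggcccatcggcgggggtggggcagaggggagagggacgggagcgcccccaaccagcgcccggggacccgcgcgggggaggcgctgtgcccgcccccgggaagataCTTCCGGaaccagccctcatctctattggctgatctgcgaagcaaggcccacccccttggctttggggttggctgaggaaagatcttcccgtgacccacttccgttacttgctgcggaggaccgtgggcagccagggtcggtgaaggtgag
SDHD: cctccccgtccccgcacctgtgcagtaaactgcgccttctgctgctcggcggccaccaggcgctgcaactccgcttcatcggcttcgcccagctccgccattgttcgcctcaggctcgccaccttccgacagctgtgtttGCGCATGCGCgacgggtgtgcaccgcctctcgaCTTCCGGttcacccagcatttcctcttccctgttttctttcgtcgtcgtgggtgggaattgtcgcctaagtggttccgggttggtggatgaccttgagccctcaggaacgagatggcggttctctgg
NDUFB3: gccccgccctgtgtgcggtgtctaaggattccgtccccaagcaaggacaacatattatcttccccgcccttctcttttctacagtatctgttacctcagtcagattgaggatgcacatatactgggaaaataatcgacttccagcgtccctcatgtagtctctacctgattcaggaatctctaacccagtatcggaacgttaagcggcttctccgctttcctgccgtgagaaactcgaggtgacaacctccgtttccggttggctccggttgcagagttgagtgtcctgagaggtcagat
NDUFA9: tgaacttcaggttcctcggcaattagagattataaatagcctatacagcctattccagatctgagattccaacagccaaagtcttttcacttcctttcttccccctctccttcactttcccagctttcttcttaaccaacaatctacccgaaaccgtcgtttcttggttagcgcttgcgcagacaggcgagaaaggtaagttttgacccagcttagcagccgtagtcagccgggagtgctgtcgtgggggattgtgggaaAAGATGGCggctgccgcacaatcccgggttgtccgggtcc
COX7C: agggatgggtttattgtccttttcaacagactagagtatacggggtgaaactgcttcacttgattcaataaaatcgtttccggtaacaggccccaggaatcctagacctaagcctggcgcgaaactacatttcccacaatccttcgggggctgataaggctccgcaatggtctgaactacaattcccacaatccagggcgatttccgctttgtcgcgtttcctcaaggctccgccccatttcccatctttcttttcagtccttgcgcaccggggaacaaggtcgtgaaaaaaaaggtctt
In ATP5H the capitals are the ETS motif read on the other strand. In SDHD the first run of capitals has 10 letters, reads the same on both strands and holds an NRF1 match on each, and the second run is an ETS match. In NDUFA9 they are a YY1 match. NDUFB3 and COX7C held none of the motifs. One or more of the 3 motifs stood in 33 of the 67 member promoters (49.3%), against 15.6% of all 27305 promoters and 25.3% of the 11906 promoters of genes tested. The NRF1 motif was in 19.4% of member promoters (3.3% of all, 5.1% of genes tested). The ETS motif was in 28.4% (10.7% of all, 17.9% of genes tested) and the YY1 motif in 16.4% (3.0% of all, 5.0% of genes tested). Among members with a promoter entry, a motif was present in 16 of the 30 that rose (53.3%), 15 of the 29 that were not called (51.7%) and 2 of the 5 that fell, UQCRH and UQCR11. Levels of the motifs' factors are given with the other mitochondrial genes.

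To find how these genes differed between hESCs and NMP-L (D3) cells, expected counts were tested with edgeR's quasi-likelihood test over all genes, and a gene was called where its adjusted p was under 0.05. Of the 87 genes, 81 passed the filter on low counts. Transcripts of 36 members were higher in NMP-L cells (44.4% of those tested, against 29.1% of all genes tested), 6 were lower (7.4%, against 26.7% of all genes) and 39 were not called. The median log2 fold change of the 81 was 0.18, against 0.03 over all 15517 genes tested. Without ATP5S, ATP5SL and COX7A2L, 34 of 78 members tested were higher (43.6%) and 6 lower (7.7%), at a median of 0.18. Rises were small, from 0.21 to 0.89 on the log2 scale, and no member rose by at least 2-fold with a call (9.38% of all genes did), while 2 fell by at least 2-fold (9.18% of all genes did). The TPM values (transcript abundance, a level that takes transcript length into account) of the groups did not overlap for 59 of the 81 (72.8%, against 63.0% of all genes tested).

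The direction rests on how libraries are scaled. Relative to the reference gene GAPDH, which fell by 0.55 itself, 76 members were called higher (93.8%, against 64.6% of all genes tested) and 2 were called lower (2.5%, against 9.20%). With HPRT1 as the reference (log2 fold change 0.28, edgeR adjusted p = 0.069), 3 members were called higher (3.7%, against 11.6% of all genes) and 11 lower (13.6%, against 34.1%), so that members were then called higher less often than all genes. These scalings moved the median of all genes by 0.56 and -0.30, and the members' median stayed 0.15 and 0.16 above that of all genes, as it did with the trimmed-mean scaling (0.15). Single libraries mattered as well, since 10 members were lower without hESC replicate 1, and the number that was higher lay between 26 (without hESC replicate 3) and 40 (without NMP-L replicate 3). Of the 36 calls of a rise, 25 were kept when each library in turn was left out, and of the 6 falls 4 were. In bulk RNA, fewer cells of a type and less RNA per cell cannot be told apart.

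**Figure D1:**
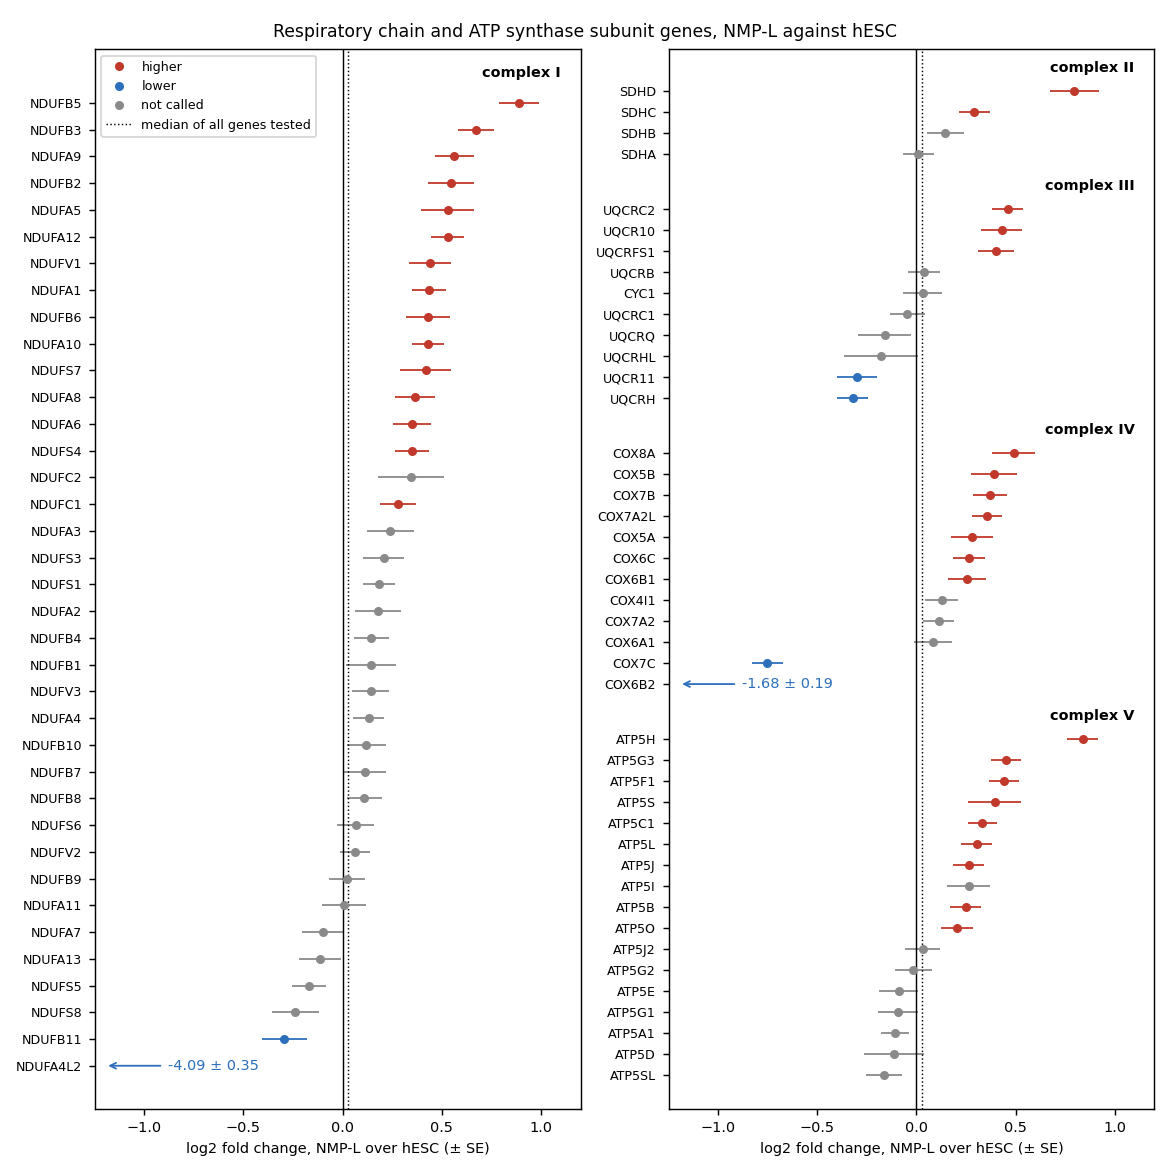
Each point is the log2 fold change of 1 of 80 members tested, NMP-L over hESC, with its standard error as a bar, for complex I (left) and complexes II to V (right), and arrows stand for values beyond the axis. Over all 81 members tested, drawn or not, 36 were called higher and 6 lower with trimmed-mean scaling (all genes 29.1% and 26.7%). The counts were 76 and 2 relative to GAPDH (all genes 64.6% and 9.20%) and 3 and 11 relative to HPRT1 (all genes 11.6% and 34.1%).

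The libraries held between 19454543 and 23036426 expected counts, of which the members took 0.895% to 0.988% in hESCs and 1.03% to 1.13% in NMP-L cells. In the check of the labels, 5 of 7 pluripotent cell markers fell (NANOG by 2.59 and POU5F1 by 0.92 on the log2 scale), while 6 of 8 NMP-L markers rose, T, CDX1, CDX2 and SP5 from at most 0.34 TPM to at least 11.97 TPM, and FGF17 fell. Endoderm markers summed to 2.11 to 3.46 TPM in hESCs and 3.24 to 5.41 TPM in NMP-L cells, with SOX17, GATA4, GATA6 and FOXA1 under 1 TPM throughout. Most of this was CXCR4 (means of 2.28 and 3.39 TPM), which was not called. Markers of muscle, the tissue known for some of the restricted isoforms below, summed to 18.02 to 19.6 TPM in hESCs and 4.03 to 4.82 TPM in NMP-L cells. Most of this was ACTC1 (means of 10.9 and 3.26 TPM) and TNNT2 (6.93 and 0.643 TPM). All 3 muscle markers tested (ACTC1, TNNT2 and TTN) were called lower, against 26.7% of all genes. MYH6, MYH7, MYOD1 and CKM were under 1 TPM and MYOG was at 0. Neuron markers summed to 265 to 297 TPM and 162 to 183 TPM, mostly TUBB3. On the log2 scale TUBB3 (-0.83) and STMN2 (-2.68) fell, MAP2 rose (0.97), and DCX and ELAVL4 were not called. Fibroblast markers summed to 599.8 to 657 TPM and 113 to 116 TPM, carried by COL1A1, COL1A2 and THY1, with COL3A1, DCN and LUM at or near 0. The part of these lists in the results was not tested.

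Complex I, the entry point for electrons from NADH, had 38 genes tested. Of these 15 rose (39.5%) and 2 fell (5.3%), against 29.1% and 26.7% of all genes, with a median log2 fold change of 0.18. By name, 7 of 14 NDUFA genes, 4 of 11 NDUFB genes, 1 of 2 NDUFC genes, 2 of 8 NDUFS genes and 1 of 3 NDUFV genes rose. The count of falls was 5 without hESC replicate 1. Relative to HPRT1, 1 rose and 5 fell (all genes 11.6% and 34.1%), and relative to GAPDH 37 rose and 1 fell (all genes 64.6% and 9.20%). Where TPM was tested in place of counts, 26 genes rose, and 34.7% (log2(TPM + 1)) and 34.6% (log2(TPM + 0.1)) of all genes tested did. NDUFB5, an accessory subunit of the membrane arm (chromosome 3, positions 179322478 to 179345435 on GRCh37), had 136, 113 and 113 TPM in the 3 hESC libraries and 207, 245 and 256 TPM in the 3 NMP-L libraries. Every NMP-L library was above every hESC library, and the log2 fold change of 0.89 ± 0.10 (SE, edgeR adjusted p = 1.7e-05), a 1.85-fold difference, was the largest rise of the 81 members. NDUFB3, also of the membrane arm, had 94.6, 90.2 and 91.6 TPM in hESCs and 160.2, 142 and 170.02 TPM in NMP-L cells. Its groups stood well apart, with a log2 fold change of 0.67 ± 0.09 (edgeR adjusted p = 7.3e-05). NDUFA9, a subunit of the matrix arm whose promoter with a YY1 match is shown above, had 90.0, 88.7 and 78.0 TPM in hESCs and 137, 142 and 126 TPM in NMP-L cells. The NMP-L libraries were all above the hESC libraries, and the log2 fold change was 0.56 ± 0.10 (edgeR adjusted p = 0.00044). NDUFB2 (0.55), NDUFA5 (0.53) and NDUFA12 (0.53) followed in log2 fold change, all with groups that did not overlap in TPM. NDUFB2 shares 113 bases of exon with the antisense gene NDUFB2-AS1, and whether counting used strand is not given in the sources used here.

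The catalytic core of complex I is made by 7 nuclear genes, which carry the flavin and the iron-sulphur clusters. Among them NDUFV1 and NDUFS7 rose (28.6%, near the 29.1% of all genes) and none fell (26.7% of all genes did). Relative to HPRT1 neither rose, and NDUFS8 fell. NDUFV1, which binds NADH, had 124, 152 and 144 TPM in hESCs and 215, 207 and 188 TPM in NMP-L cells. The groups did not overlap, at a log2 fold change of 0.44 ± 0.11 (edgeR adjusted p = 0.004). NDUFS7, which carries the cluster next to ubiquinone, had 70.6, 90.6 and 86.7 TPM in hESCs and 129, 119.6 and 106 TPM in NMP-L cells, and its log2 fold change was 0.42 ± 0.13 (edgeR adjusted p = 0.017). That call was lost when any of 4 libraries (hESC replicates 1 and 3, NMP-L replicates 1 and 2) was left out. NDUFS3, NDUFS1, NDUFV2 and NDUFS8 were not called, at log2 fold changes of 0.21, 0.18, 0.06 and -0.24. The 31 accessory members included 13 rises (41.9%, against 29.1% of all genes) and both falls (6.5%, against 26.7%). NDUFA4L2, which is placed here by symbol, is one of these falls. The most abundant members of complex I, NDUFS5 and NDUFA13, were not called, at means of 838 and 509.6 TPM in hESCs and 798 and 503 TPM in NMP-L cells. NDUFA5 was among the lowest, at 17.8 TPM in hESCs and 27.6 TPM in NMP-L cells, so levels within the complex spanned a wide range while most differences stayed small.

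The steepest fall of any member was that of NDUFA4L2 (chromosome 12, positions 57628686 to 57634498 on GRCh37), a paralogue of NDUFA4 known as a gene induced by hypoxia. It had 9.01, 6.24 and 11.8 TPM in hESCs (91, 68 and 123 expected counts) and 0.260, 0.730 and 0.680 TPM in NMP-L cells (3, 8 and 8 expected counts). The highest NMP-L library lay far below the lowest hESC library, and the log2 fold change was -4.09 ± 0.35 (edgeR adjusted p = 2.1e-06), or 17.1-fold lower. Exons of NDUFA4L2 overlap those of SHMT2 on the opposite strand over 33 bases. NDUFA4 itself was at 263, 266 and 247 TPM in hESCs and 315, 300.1 and 294 TPM in NMP-L cells, which gave a log2 fold change of 0.13 ± 0.08 and no call (edgeR adjusted p = 0.17). NDUFA4L2 thus made up 3.31%, 2.29% and 4.54% of the summed TPM of the pair in hESCs and 0.0825%, 0.243% and 0.231% in NMP-L cells. These shares did not overlap between the groups, which in an exact two-sided permutation test of 3 against 3 libraries gives p = 0.1, the smallest p such a test allows. NDUFB11, a membrane-arm subunit encoded on the X chromosome, fell by 0.29 ± 0.11 on the log2 scale (edgeR adjusted p = 0.046), from 104, 118 and 109 TPM to 101, 102 and 84.3 TPM. Its call was lost without any of 4 libraries (hESC replicates 2 and 3, NMP-L replicates 2 and 3), under 5 further settings, and its groups lay close to each other.

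**Figure D2:**
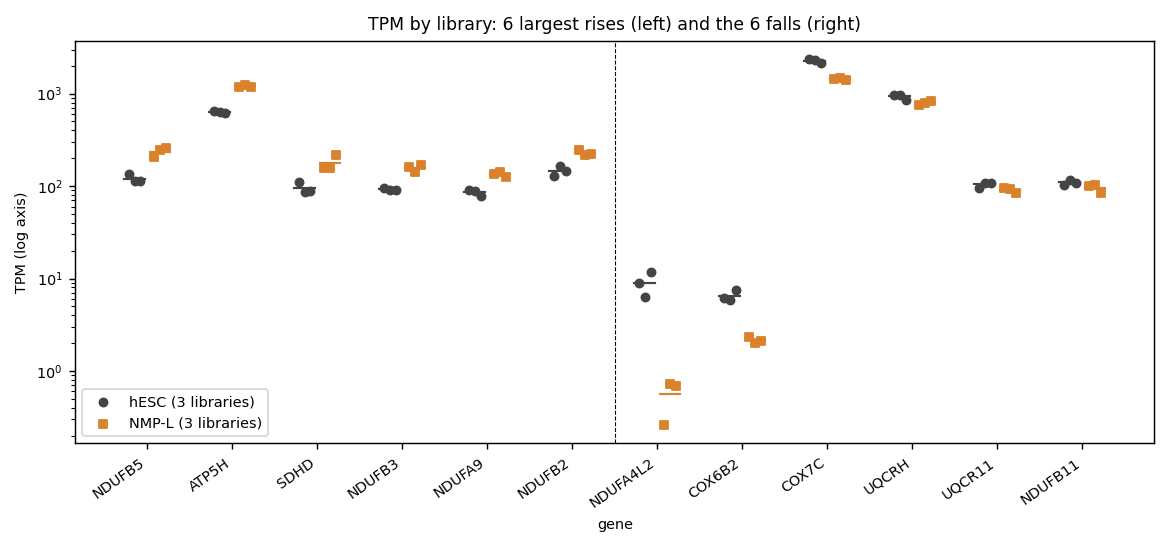
TPM (log axis) in each of the 6 libraries for the 6 members with the largest rises and for the 6 members called lower, as circles for hESC and squares for NMP-L, with a short line at the group mean. The 12 genes were picked by their calls, and in none of them do the groups overlap, as in 63.0% of all genes tested. Relative to HPRT1 only NDUFB5, ATP5H and SDHD of the 6 rises were called higher, while all 6 falls were called lower. Relative to GAPDH only NDUFA4L2 and COX6B2 of the falls were called lower, and NDUFB11 and UQCR11 were called higher.

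Complex II, succinate dehydrogenase, is also an enzyme of the tricarboxylic acid cycle and has no subunit encoded in mitochondrial DNA. Its 2 membrane anchors rose (2 of 4 genes, against 29.1% of all genes), and its 2 catalytic subunits were not called. Relative to HPRT1 only SDHD rose (all genes 11.6%), and relative to GAPDH all 4 did (all genes 64.6%). SDHD, one of the anchors, had 111, 86.0 and 88.4 TPM in hESCs and 157, 157 and 219 TPM in NMP-L cells. The third NMP-L library was highest, none of the libraries crossed, and the log2 fold change was 0.80 ± 0.12 (edgeR adjusted p = 0.00019), a 1.74-fold rise. SDHC, the other anchor, had 97.9, 87.9 and 88.6 TPM in hESCs and 118, 121 and 120.2 TPM in NMP-L cells, with a log2 fold change of 0.29 ± 0.08 (edgeR adjusted p = 0.0065). SDHB, the iron-sulphur subunit, went from 114, 112 and 107 TPM to 135, 135 and 123 TPM without a call (log2 fold change 0.15 ± 0.09, edgeR adjusted p = 0.19). SDHA, the flavoprotein that oxidises succinate, had 114, 113 and 119.5 TPM in hESCs and 127, 126 and 120.0 TPM in NMP-L cells, and its log2 fold change of 0.01 ± 0.08 was not called (edgeR adjusted p = 0.93) and changed sign with several settings. Counts of SDHA were fractional, which shows that reads were shared with other genes. In hESCs the mean TPM of the 4 genes lay between 91.5 (SDHC) and 116 (SDHA), and in NMP-L cells SDHD was the highest at 178 TPM, with the others between 119.8 and 131 TPM.

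In complex III, which carries electrons from ubiquinone to cytochrome c, 3 of 10 genes rose (30.0%) and 2 fell (20.0%). These shares were near those of all genes (29.1% and 26.7%), and the median log2 fold change was -0.01. Relative to HPRT1, 0 rose and 3 fell (all genes 11.6% and 34.1%), and relative to GAPDH 8 rose and 0 fell (all genes 64.6% and 9.20%). UQCRC2, a core protein, had 201, 194 and 192 TPM in hESCs and 287, 301 and 275 TPM in NMP-L cells. The groups stood apart, at a log2 fold change of 0.46 ± 0.08 (edgeR adjusted p = 0.0004). UQCRC1, the other core protein, went from 233, 261 and 248 TPM to 263, 262 and 242 TPM with overlapping groups and no call (-0.05 ± 0.09, edgeR adjusted p = 0.67). The small subunit UQCR10 rose by 0.43 ± 0.10 on the log2 scale (edgeR adjusted p = 0.004), from 119, 136 and 122 TPM to 195, 179 and 169 TPM. UQCRFS1, the Rieske iron-sulphur protein, rose by 0.40 ± 0.09 (edgeR adjusted p = 0.0033), from 198, 221 and 207 TPM to 302, 307 and 274 TPM. CYC1, cytochrome c1, which hands electrons to cytochrome c, was not called at 163, 185 and 178 TPM in hESCs and 198, 200.3 and 175 TPM in NMP-L cells (log2 fold change 0.03 ± 0.10, edgeR adjusted p = 0.81).

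UQCRH, the hinge protein beside cytochrome c1 and the most abundant transcript of complex III, had 976, 972 and 859 TPM in hESCs and 756, 800.2 and 833 TPM in NMP-L cells. It fell by 0.32 ± 0.08 on the log2 scale (edgeR adjusted p = 0.0046), although the third NMP-L library came near the lowest hESC library. Its counts were fractional and shared with the near-identical copy UQCRHL, which had 59.9, 78.8 and 64.6 TPM and 78.5, 65.0 and 48.1 TPM, so the split between them is uncertain. Summed, the pair had a log2 ratio of -0.31 in CPM (counts scaled by library size), close to that of UQCRH alone. UQCR11 fell by 0.30 ± 0.10 (edgeR adjusted p = 0.024), from 96.3, 109 and 108 TPM to 94.9, 92.7 and 84.6 TPM. Its call was lost without any of 3 libraries (hESC replicates 2 and 3, NMP-L replicate 3). The call was also lost with library-size scaling, with the replicate block and on log2(TPM + 0.1). UQCRQ, the lowest transcript of complex III, was not called at 51.2 ± 7.39 TPM in hESCs and 49.0 ± 4.93 TPM in NMP-L cells (SD, n = 3 each).

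Complex IV, cytochrome c oxidase, reduces oxygen, and 12 of its 17 genes passed the filter. Of these 7 rose (58.3%, against 29.1% of all genes) and 2 fell (16.7%, against 26.7%), with a median log2 fold change of 0.26. The number that rose was 4 without hESC replicate 1, without hESC replicate 3, without NMP-L replicate 1 or without NMP-L replicate 2. Relative to HPRT1, 0 rose and 2 fell (all genes 11.6% and 34.1%), and relative to GAPDH 10 rose and 1 fell (all genes 64.6% and 9.20%). COX8A, one of the smallest subunits, had 425, 453 and 478 TPM in hESCs and 712, 730.5 and 590.0 TPM in NMP-L cells. The third NMP-L library was the lowest of its group and still above all hESC libraries, and the log2 fold change was 0.49 ± 0.11 (edgeR adjusted p = 0.0025). COX5B, which binds zinc, had 381, 395 and 413 TPM in hESCs and 587, 605 and 471 TPM in NMP-L cells, with the same library lowest among NMP-L. Its log2 fold change was 0.39 ± 0.11 (edgeR adjusted p = 0.012) and lost its call without NMP-L replicate 2. COX7B, encoded on the X chromosome, rose by 0.37 ± 0.09 (edgeR adjusted p = 0.0035), from 429, 450.0 and 421 TPM to 577, 636 and 584 TPM. COX7A2L, which is known to join complexes III and IV in supercomplexes, rose by 0.36 ± 0.07 (edgeR adjusted p = 0.0018), from 160.2, 153 and 165 TPM to 209, 219 and 227 TPM, and lost its call with libraries corrected for GC content and transcript length (0.16, edgeR adjusted p = 0.098). COX5A (0.28), COX6C (0.26) and COX6B1 (0.26) rose less, and each lost its call without any of 3 or 4 libraries and under further settings, the replicate block among them. COX4I1 (0.13), COX7A2 (0.11) and COX6A1 (0.08) were not called.

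Against these stood COX7C, a small subunit that was the most abundant member by TPM in hESCs. It had 2368, 2313 and 2148 TPM in hESCs and 1448, 1471 and 1415 TPM in NMP-L cells. Every NMP-L library was well below every hESC library, and the log2 fold change was -0.75 ± 0.08 (edgeR adjusted p = 7.9e-06), or 1.68-fold lower. The call was kept without each library and relative to HPRT1 but not relative to GAPDH, and its promoter, shown above, held none of the 3 motifs. Within complex IV its mean of 2277 TPM in hESCs was followed by 867 TPM of COX4I1, and in NMP-L cells the values were 1445 and 1014 TPM. In NMP-L cells the mean of ATP5B was higher, at 1518 TPM. In CPM, which is not divided by length, ATP5B was above COX7C in both groups (1051 against 355 in hESCs, 1248 against 211 in NMP-L cells). The summed TPM of complex IV, of which COX7C is a part, was 6696, 6947 and 6619.8 in hESCs and 7276, 7436 and 6707 in NMP-L cells, so these groups overlapped.

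Several members of complex IV are known from restricted tissues, and they were at low levels. COX6B2, known from testis (chromosome 19, positions 55860674 to 55866087 on GRCh37), had 6.14, 5.88 and 7.46 TPM in hESCs (89, 92 and 112 expected counts) and 2.33, 2.03 and 2.13 TPM in NMP-L cells (39, 32 and 36 expected counts). The groups did not overlap, and it fell by 1.68 ± 0.19 on the log2 scale (edgeR adjusted p = 1.6e-05), to 3.20-fold lower. Its common partner COX6B1 had 449.6, 505 and 503 TPM and 653, 631 and 577 TPM, so the share of COX6B2 in the pair went from 1.35%, 1.15% and 1.46% to 0.356%, 0.321% and 0.368% (exact permutation p = 0.1, the smallest possible). The others did not pass the filter and were not tested. COX6A2, an isoform of heart and skeletal muscle, had 1, 6 and 2 counts in hESCs and 0, 0 and 0 in NMP-L cells, and COX7A1, also of muscle, had 5, 3 and 6 against 4, 7 and 4. COX4I2, known from lung, had 1, 3 and 7 against 0, 2 and 3 counts, while COX8C, COX7B2 and the complex V gene ATP5L2 had at most 1 count in any library. At this depth a count of 3, taken as the floor, corresponds to between 0.130 and 0.154 CPM (counting error only), and differences below it were not detectable.

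Complex V, the ATP synthase, had 17 genes tested. Of these 9 rose (52.9%, against 29.1% of all genes) and none fell (26.7% of all genes did), at a median log2 fold change of 0.25. Without hESC replicate 3 the number that rose was 5, and without hESC replicate 1 a single gene was lower. Relative to HPRT1, 1 rose and 1 fell (all genes 11.6% and 34.1%), and relative to GAPDH 17 rose and 0 fell (all genes 64.6% and 9.20%). In the catalytic head, ATP5B, the beta subunit and the most abundant transcript of the complex, had 1169.6, 1223 and 1195 TPM in hESCs and 1569.9, 1554 and 1429 TPM in NMP-L cells. It rose by 0.25 ± 0.08 on the log2 scale (edgeR adjusted p = 0.017), a call lost without any of 4 libraries (hESC replicates 1 and 3, NMP-L replicates 1 and 2). ATP5A1, the alpha subunit that alternates with it, had 1031, 1059 and 1030.1 TPM in hESCs and 1042, 1050.4 and 1000.0 TPM in NMP-L cells, with overlapping groups and no call (-0.11 ± 0.07, edgeR adjusted p = 0.21). ATP5C1, the central gamma subunit, rose by 0.33 ± 0.07 (edgeR adjusted p = 0.0022), whereas ATP5D and ATP5E, delta and epsilon, were not called at -0.11 and -0.09.

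In the peripheral stalk, which holds the head in place, ATP5H (subunit d) had 642, 637 and 612 TPM in hESCs and 1187, 1248 and 1177 TPM in NMP-L cells. The groups were tight and far apart, and the log2 fold change of 0.84 ± 0.08 (edgeR adjusted p = 3.1e-06), 1.79-fold, was the second largest rise of the members. Its promoter is the first shown above, with an ETS match. ATP5F1 (subunit b) rose by 0.44 ± 0.07 (edgeR adjusted p = 0.00039), from 194, 185 and 176 TPM to 262, 275 and 269 TPM. ATP5J (factor 6, 0.26) and ATP5O (the oligomycin sensitivity protein, 0.21) rose less on the log2 scale. The call of ATP5J was lost without hESC replicate 3, with the replicate block and after correction for GC content and length (0.12, edgeR adjusted p = 0.075), and that of ATP5O without any of 4 libraries (hESC replicates 1 and 3, NMP-L replicates 1 and 2) and under 4 further settings. ATP5L (subunit g) rose by 0.30, a call lost with the same correction (0.10, edgeR adjusted p = 0.33), and ATP5I (subunit e) was at 0.26 without a call (edgeR adjusted p = 0.053). ATP5S, a low transcript that is not counted as a subunit, rose by 0.39 ± 0.14 (edgeR adjusted p = 0.027), from 10.6, 9.28 and 9.04 TPM to 12.9, 11.4 and 15.96 TPM. It lost its call without any of 3 libraries, with DESeq2 and with the replicate block, and shares 1693 bases of exon with CDKL1 on the other strand.

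The rotating ring of complex V is built from subunit c, which 3 genes encode as the same mature protein. ATP5G3 had 158, 154 and 149 TPM in hESCs and 227, 229 and 219 TPM in NMP-L cells, a rise of 0.45 ± 0.07 on the log2 scale (edgeR adjusted p = 0.00032). ATP5G1 (225, 237 and 224 TPM against 237, 242 and 208 TPM) and ATP5G2 (347, 379.9 and 386 TPM against 417, 399.9 and 364 TPM) overlapped between the groups and were not called, at log2 fold changes of -0.10 and -0.02. As shares of their summed TPM, ATP5G3 went from 20.4% ± 1.04 to 26.6% ± 0.995, ATP5G1 from 30.4% ± 0.733 to 27.0% ± 0.745 and ATP5G2 from 49.2% ± 1.63 to 46.4% ± 0.769 (SD, n = 3 each, exact permutation p = 0.1 for each, the smallest possible). ATP5G2 was the most abundant of the 3 by TPM in every library. In counts, which are not divided by length, ATP5G3 had the largest share (49.5% in hESCs and 58.0% in NMP-L cells), and the shares of the 3 moved in the same directions. Shares within the set do not depend on the scaling of libraries.

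**Figure D3:**
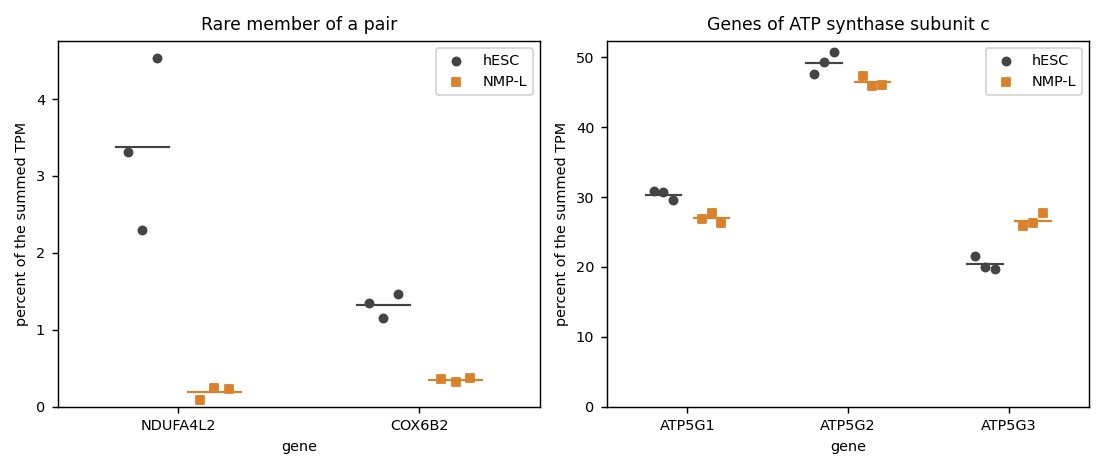
Share (percent of summed TPM) of NDUFA4L2 in its pair with NDUFA4 and of COX6B2 in its pair with COX6B1 (left), and of each subunit c gene in the 3 together (right), with 1 point per library and a line at the group mean. The shares of NDUFA4L2, COX6B2, ATP5G1 and ATP5G2 are lower in every NMP-L library than in every hESC library, and that of ATP5G3 is higher.

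Summed over members, levels per transcript length rose in the TPM scale from 22681, 23924 and 22750.1 to 27091, 27289 and 25516, a ratio of 1.152. The ratio of group means was 1.34 for complex II, 1.24 for complex V and 1.18 for complex I, whose groups did not overlap, and 1.06 for complex IV and 1.05 for complex III, whose groups did. In complex III the sums were 2162, 2289.9 and 2092 TPM in hESCs and 2302, 2331 and 2227 TPM in NMP-L cells. These sums weigh abundant members most and were given no test. On TPM the median log2 fold change of all genes tested was 0.11 (log2(TPM + 1)) and 0.12 (log2(TPM + 0.1)). With trimmed-mean scaling of counts it was 0.03, so the ratios of summed TPM are not relative to all genes. The third NMP-L library had the lowest sum of its group in complexes I, III, IV and V.

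Members that rose had transcripts with a median GC content of 43.5%, against 52.7% of those not called and 55.2% of those that fell. Over 80 members, the log2 fold change and GC content had a Spearman correlation of -0.457, and over all genes tested one of -0.233. Both are descriptions across genes that share libraries. With each library corrected for GC content and transcript length, 42 members were higher (52.5%, against 32.6% of all genes) and 8 lower (10.0%, against 33.4%). The member median was then 0.17, and 30 of the 36 rises and 5 of the 6 falls were called again. Of the other rises NDUFB6 had no GC value, and ATP5J, ATP5L, COX5A, COX6C and COX7A2L lost their calls.

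Other genes of the same machinery moved in both directions. Among 134 listed genes for assembly, electron carriers, mitochondrial gene expression and neighbouring pathways, 130 were tested. Of these 42 rose (32.3%, near the 29.1% of all genes) and 21 fell (16.2%, against 26.7%). Their median log2 fold change was 0.08, against 0.03 over all genes. Without hESC replicate 3, 26 rose (19.8%, against 23.3% of all genes). Relative to HPRT1, 6 rose (4.6%, against 11.6% of all genes) and 33 fell (25.4%, against 34.1%). Relative to GAPDH, 105 rose (80.8%, against 64.6%) and 3 fell (2.3%, against 9.20%). The lists within are small, and their counts are descriptions. Of 18 assembly factors of complex I, ATP5SL among them, 4 rose and 2 fell, led by NDUFAF4 (0.60), NDUFAF6 (0.55), NDUFAF7 (-0.44) and ECSIT (-0.37). None of 4 complex II factors was called. Of 6 complex III factors 4 rose, BCS1L (0.65), which inserts the Rieske protein, and TTC19 (0.52) the most, and UQCC3 fell (-0.53). Of 24 complex IV factors 4 rose and 3 fell, with LRPPRC (0.48) and COX10 (0.45) the largest rises and SCO2 (-0.59) and COA7 (-0.49) the largest falls. Both ATP synthase chaperones, ATPAF2 (0.51) and ATPAF1 (0.34), rose.

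Between the complexes, electrons travel on coenzyme Q and cytochrome c. CYCS, cytochrome c, rose by 0.52 on the log2 scale (edgeR adjusted p = 0.0018), from 85.7, 71.9 and 63.9 TPM to 99.1, 111 and 131 TPM, and the other 5 carrier genes tested were not called. Of 11 genes of coenzyme Q synthesis 5 rose and 1 fell, among them PDSS1 (0.96), which makes its side chain, COQ9 (0.82) and COQ8A (-1.23). Of the factors whose motifs were searched, NRF1 (12.6, 11.9 and 13.2 TPM against 12.9, 14.4 and 14.0 TPM) and GABPA (20.9, 12.4 and 16.8 TPM against 16.01, 18.4 and 21.6 TPM) overlapped between the groups and were not called. YY1 fell by 0.57 on the log2 scale (edgeR adjusted p = 8.7e-05), from 92.7, 80.7 and 88.8 TPM to 60.3, 60.9 and 68.2 TPM.

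**Figure D4:**
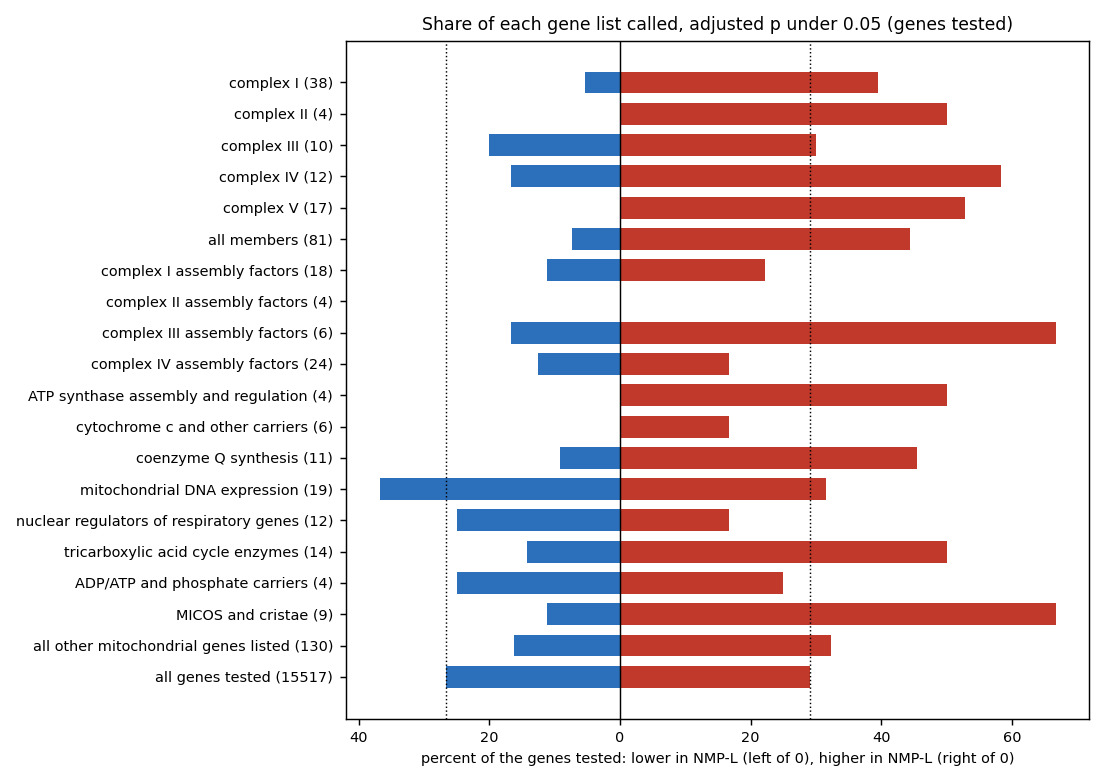
Bars give the percent of the genes tested in each list that were called higher (right of 0) or lower (left of 0) in NMP-L cells, with the number tested in parentheses, and dotted lines mark 29.1% and 26.7%, the percent of all genes called higher and lower with trimmed-mean scaling. The members stand at 44.4% higher and 7.4% lower with that scaling, at 93.8% and 2.5% relative to GAPDH (all genes 64.6% and 9.20%) and at 3.7% and 13.6% relative to HPRT1 (all genes 11.6% and 34.1%).

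**Figure D5:**
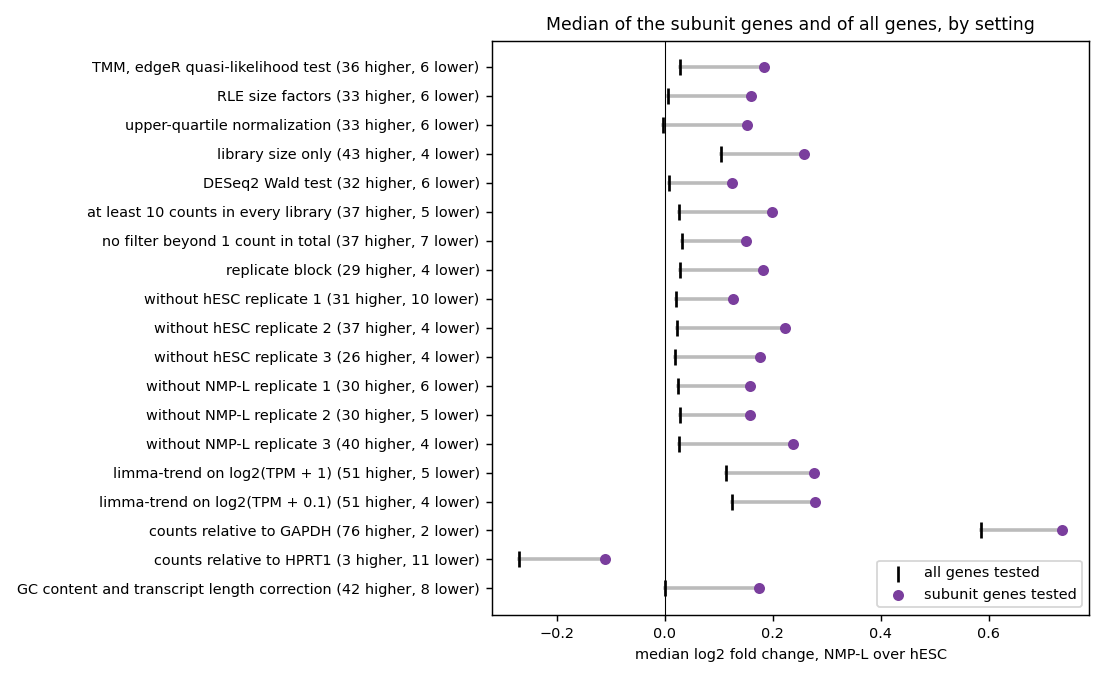
Median log2 fold change of the subunit genes tested (points) and of all genes tested (ticks) under each setting, with the number of subunit genes called higher and lower. The members' median is above that of all genes in every setting shown, and it is below 0 only relative to HPRT1 (-0.11, against -0.27 for all genes).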

How the data were processed

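RNA-seq was measured in 6 libraries, 3 of hESCs and 3 of NMP-L cells, grouped by their labels. The authors deposited expected counts and TPM per gene in 1 table of 27672 genes, with 1 column of each unit per library and 0 columns left unused. Per the submitters' processing notes the tools were cutadapt 1.9.1, STAR 2.5.2a, RSEM 1.3.0 and DESeq2 1.12.3, with build hg19, and the annotation and the strand setting of the counting are not given in the sources used here. Expected counts, as deposited, are estimates that share reads between similar genes, so that 8 members had fractional values, and they were not normalized between libraries. TPM, as deposited by the authors, is scaled by transcript length to a total of 1000000 per library, so it compares genes within a library and depends on what else is expressed.

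Rounded expected counts entered edgeR 4.0.16 under R 4.3.3 (filterByExpr with a minimum count of 10, TMM scaling, glmQLFit and glmQLFTest, Benjamini-Hochberg adjustment over all 15517 genes that passed). The standard error is the log2 fold change divided by the square root of the F value. Single shares were compared by exact two-sided permutation over libraries. Alternatives were RLE, upper-quartile and library-size scaling, DESeq2 1.42.0, 2 other filters, the replicate number as a block, leaving out each library, limma 3.58.1 on log2(TPM + 1) or log2(TPM + 0.1) for genes with at least 1 TPM in 3 libraries, counts relative to GAPDH or HPRT1, and a lowess correction (span 0.3) for GC content and transcript length. The programs were tested on simulated data.

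Symbols were matched to GENCODE release 44 on GRCh37 for position, length and GC content, with older symbols from RefSeq (23876 direct, 1020 older, 2776 unmatched, and 86 of the 87 members with values). Promoters came from RefSeq on GRCh38.p14, and no coordinates were converted. The 20 members with no promoter entry included ATP5B, ATP5D, ATP5G3, ATP5J2, ATP5L2, ATP5S, COX4I2, COX6C, COX7A1, CYC1, NDUFA4, NDUFA4L2, NDUFB5, NDUFB9, NDUFC2, NDUFS5, SDHC, UQCRB and UQCRHL. Tables were joined in Python 3.11.15 with pandas 2.3.3 and drawn with matplotlib 3.10.9.

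The members and gene lists were chosen with earlier results of these data known. Any member could be named. Values were given for the 3 largest rises and falls called in complexes I, III, IV and V, all SDH genes and CYC1, core, duplicated, tissue-restricted and subunit c genes with their partners, the 2 highest and lowest of each complex, and the 2 largest rises and falls called in each other list, apart from 2 genes that are counted in the totals and not reported here by name.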

Additional observations from a re-analysis of the deposited data

How the results depend on the processing

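The choice of a reference decided most. Relative to GAPDH, 76 members were higher and 2 lower (10027 and 1428 of all genes, 105 and 3 of the other mitochondrial genes), at a member median of 0.74. Relative to HPRT1, 3 were higher and 11 lower (1793 and 5294 of all genes, 6 and 33 of the other mitochondrial genes), and the member median turned to -0.11. On TPM the member median was 0.28 with either pseudocount, with 51 members higher (63.0% of those tested). Of all genes tested on TPM, 34.7% (log2(TPM + 1)) and 34.6% (log2(TPM + 0.1)) were higher, at medians of 0.11 and 0.12. RLE, upper-quartile and library-size scaling, DESeq2 and both other filters gave 32 to 43 rises and 4 to 7 falls. The correction for GC content and length gave 42 and 8 (52.5% and 10.0% of those tested, against 32.6% and 33.4% of all genes).

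Leaving out each library gave 26 to 40 rises and 4 to 10 falls among members, 3681 to 4531 rises and 3574 to 4360 falls over all genes, 26 to 40 rises and 19 to 26 falls among other mitochondrial genes, and a member median of 0.13 to 0.24. The replicate number as a block gave 29 rises, 4 falls and a median of 0.18. Deviations of libraries with the same number correlated at -0.37, -0.06 and -0.13, and no library correlated best with its own number. These values gave no sign of a pairing by number, but with 3 libraries a group they cannot exclude one. The summed TPM ratios kept their direction without the genes not counted as subunits.

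For 48 named genes, 670 of 767 comparisons kept direction and side of the threshold, 39 lost and 30 gained a call, and 28 changed sign. These comparisons leave out both reference genes: relative to GAPDH 36 rises and 2 falls of members were called again and 3 of the 42 calls changed sign, 2 of them with a call, and relative to HPRT1 3 rises and 6 falls were called again and 7 changed sign. SDHA was -0.014 with RLE, -0.022 with upper-quartile scaling and -0.012 with DESeq2, and CYC1 was -0.0031 with upper-quartile scaling. Without single libraries SDHA lay between -0.037 and 0.069, CYC1 between -0.059 and 0.12, UQCRHL between -0.37 and 0.017, ATP5G1 between -0.15 and 0.0006, ATP5G2 between -0.10 and 0.069 and UQCRC1 between -0.13 and 0.024, and the change of the UQCRHL share between -0.27 and 1.70 percentage points. ATP5G2 and UQCRC1 were 0.057 and 0.026 with library sizes, 0.084 and 0.049 on TPM with either pseudocount, and 0.031 and 0.061 with the GC correction. That correction also gave -0.059 for NDUFA4, -0.029 for NDUFV2, 0.027 for NDUFS8 (-0.24 without it) and 0.12 for NDUFA13 (called higher, -0.11 without it). The cause of these changes was not tested. With 3 libraries a group and standard errors near 0.09, changes much under 0.2 on the log2 scale were not detectable with trimmed-mean scaling.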

Other observations

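Enzymes of the tricarboxylic acid cycle, which feed NADH and succinate to complexes I and II, had 7 rises and 2 falls among 14 genes tested (all genes 29.1% and 26.7%), at a median log2 fold change of 0.19. SUCLG1, a subunit of succinyl-CoA ligase, went from 52.4, 52.6 and 54.2 TPM to 107, 107 and 97.0 TPM (log2 fold change 0.87 ± 0.09, edgeR adjusted p = 1.2e-05). SUCLA2, the partner of SUCLG1 in the ATP-forming ligase, fell (-0.38), as did IDH3G (-0.42). Of 9 genes of the MICOS complex and the cristae, where the respiratory complexes sit, 6 rose and 1 fell (66.7% and 11.1%), with APOOL (0.86) and APOO (0.53) the largest rises and CHCHD6 (-0.58) the fall. Of 4 ADP/ATP and phosphate carriers tested, SLC25A5 rose (0.20) and SLC25A3 fell (-0.26).

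Genes for the expression and copying of mitochondrial DNA had 6 rises and 7 falls among 19 tested (31.6% and 36.8%, near the 29.1% and 26.7% of all genes). TWNK, the replicative helicase, went from 44.5, 41.8 and 46.3 TPM to 21.0, 23.2 and 21.9 TPM (-1.21 ± 0.09, edgeR adjusted p = 5.3e-07), and POLG, the replicative polymerase, from 33.3, 33.2 and 37.8 TPM to 23.9, 21.5 and 23.1 TPM (-0.70 ± 0.09, edgeR adjusted p = 5.1e-05). The largest rises were those of MTERF2 (0.57) and MTIF2 (0.42). Among 12 nuclear regulators tested, PPARGC1B (0.91) and CHCHD2 (0.70) rose, and PPRC1 (-0.90), PPARGC1A (-0.65) and YY1 (-0.57) fell. HIF1A was not called, at 153, 113 and 129.7 TPM in hESCs and 147, 157 and 174 TPM in NMP-L cells.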
